A study of Mus musculus with 2 samples.

Results

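The 30 genes described here make or handle cholesterol, and all 30 were found by symbol among the 27998 genes of a single-nucleus RNA sequencing data set of regrowing mouse liver. They were taken as a list of symbols and not by a cut on a measured value, but with earlier results of these data known. Of the 30, 18 encode enzymes of cholesterol synthesis, 4 control the transcription factor that drives this synthesis, 4 act in sterol transport, receptor turnover and ester formation, and 4 belong to the liver X receptor (LXR) and sterol efflux. The study profiled nuclei of livers from C57BL/6 mice aged 12 weeks, 48 h after part of the liver had been cut away (PHx, partial hepatectomy). The libraries are titled HKO and WT. The genotypes Sox9HKO and Sox9f/f (floxed Sox9) are named in the description of the series and not for each sample, so HKO is taken here as Sox9HKO and WT as Sox9f/f by their names. The operation, time and age were the same in both. There was 1 library per group, so the differences below rest on unreplicated libraries and could not be tested. The abbreviation HKO is not spelt out in the labels, and neither the driver of the recombination nor the number of animals in a library is stated.

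The libraries held 14912 HKO and 14701 WT barcodes with 61123904 and 64609301 unique molecular identifiers (UMIs), at medians of 3286 and 3430 UMIs per barcode. They shared 70 barcodes (0.469% of HKO and 0.476% of WT barcodes). Of 17 clusters, 13 drew at least 95% of their nuclei from 1 library, so a cluster may reflect the library as much as a cell type. Nuclei were called hepatocyte-like from marker genes, which gave 8650 HKO and 9466 WT nuclei with medians of 3914 and 3806 UMIs. Levels are given as CPM, the UMIs of a gene per 1000000 UMIs of its class, and intervals in parentheses are exact 95% intervals that cover counting error only. Sox9, which encodes a transcription factor typical of bile duct cells, was at 5.77 CPM in HKO, against 11.3 CPM in WT hepatocyte-like nuclei, and at 5.91 CPM in HKO, against 8.56 CPM in WT endothelial-like nuclei, which should lack it. The labels do not say which part of Sox9 is deleted, and a 3′ tag outside that part would be no check of the deletion. Hepatocyte RNA was found in every class: in endothelial-like nuclei the median hepatocyte marker reached 88.2% (HKO) and 99.9% (WT) of what it was in hepatocyte-like nuclei.

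Cholesterol is built from acetyl-CoA through mevalonate, squalene and lanosterol. The genes of this route share a regulator, SREBP2 (encoded by Srebf2), which is escorted out of the endoplasmic reticulum by Scap when sterols are low and held back there by Insig1 and Insig2 when sterols are high. The products of LXR targets export sterol, and in liver Abcg5 and Abcg8 form the pump that moves cholesterol into bile. In the textbook view of these promoters, SREBP2 binds a sterol element next to a CCAAT box bound by NF-Y.

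The promoters of these genes are shown because many members stood lower together in HKO nuclei. Of the 30 genes, 24 had a promoter in the RefSeq table for GRCm38.p6, from 250 bases before to 50 bases after the start. The inverted CCAAT box ATTGG was found on either strand in 20 of these 24 genes, against 41.1% of all 27025 genes in the table. Among synthesis genes 14 of 15 held it, and among the other members 6 of 9. The sterol element TCACNCCAC was found in 1 of the 24 genes, Hmgcs1, against 1.44% of all genes. The shorter CACCCCAC, which overlaps it, was found in Hmgcs1 and Acat2, against 3.30% of all genes. The E-box CACGTG was found in 6 of the 24 genes, against 8.09% of all genes. A match describes letters in a window and is neither a bound site nor a cause. The lines below give windows of 29 bases, 5′ to 3′ on the gene's strand, with the match in capitals. They belong to members at least 2-fold lower in HKO hepatocyte-like nuclei whose match lay upstream of every start in RefSeq and GENCODE, and each shows a single match.
Hmgcs1, sterol element, chr13:119690204-119690232, plus strand: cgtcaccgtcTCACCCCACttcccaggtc
Hmgcs1, CCAAT box, chr13:119690294-119690322, plus strand: tccccgcctctcATTGGctgaaagcggat
Insig1, CCAAT box, chr5:28071184-28071212, plus strand: cgccctcctcccATTGGctccggcggcct
Sc5d, CCAAT box, chr9:42264308-42264336, minus strand: cgccggctgctgATTGGccggctgcctgc
Nsdhl, CCAAT box, chrX:72918489-72918517, plus strand: aagactagcctcATTGGgcaaaatcatgc
Mvk, CCAAT box, chr5:114444207-114444235, plus strand: ttaatgtttgacCCAATctgtaaaggagc
Ebp, CCAAT box, chrX:8193551-8193579, minus strand: atccctgtactgATTGGttcgtcagattc
The Mvk box shown lies in the opposite orientation, so its letters read CCAAT, while other boxes in that promoter read ATTGG. The Hmgcs1 sterol element begins 137 bases before the start in the RefSeq promoter table and the box shown 45 bases before it, while the Insig1 box begins 216 bases before its RefSeq start. The gene coordinates given with the values below are those of GENCODE, whose starts differ from these RefSeq starts.

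In hepatocyte-like nuclei the synthesis genes stood lower in HKO than in WT from the first step of the route to its last. Summed over the 18 genes, their level was 468 CPM (461 to 475) in HKO, against 1102 CPM (1092 to 1112) in WT, a fold of 0.425 (0.417 to 0.432). All 18 had a log2 ratio of HKO over WT below 0, against 33.5% of the 8410 genes with a mean of 10 CPM or more. Of the 18, 11 were at least 2-fold lower in HKO (a log2 ratio of -1 or less). Over all 30 members, 29 passed a floor of a mean of 10 CPM, 14 of these were at least 2-fold lower, 15 lay between, and 0 were at least 2-fold higher. The background was 4.45% of 8410 genes at least 2-fold lower and 2.96% at least 2-fold higher. The median log2 ratio was -1.16 over the 18 synthesis genes, -0.95 over the 29 members that passed, and 0.16 over all genes. The split of all genes was 374 lower and 249 higher here, and 497 lower and 178 higher with median ratio size factors, under which the median of all genes was 0.024 and that of the synthesis genes -1.30.

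Hepatocyte RNA as a whole also differed. Of the 15 hepatocyte markers 8 were at least 2-fold lower in HKO and 11 had a ratio below 0, against 4.45% and 33.5% of all genes. The markers summed to 16706 CPM in HKO, against 31733 CPM in WT. Mitochondrial transcripts summed to 1380 CPM in HKO, against 3068 CPM in WT, and 12 of 13 were at least 2-fold lower. The nuclear retained RNA Malat1 stood at 50726 CPM in HKO, against 38054 CPM in WT. Haemoglobin genes summed to 36.4 CPM in HKO, against 2.35 CPM in WT. Of the markers of other classes in hepatocyte-like nuclei, the 12 endothelial ones summed to 821 CPM in HKO, against 603 CPM in WT, the 12 stellate ones to 185 and 270 CPM, and the 12 macrophage ones to 283 and 296 CPM, with none of them at 0. The part of these differences in the levels of the sterol genes was not tested. Across 4 equal groups of nuclei ranked by mitochondrial share within a library, the synthesis genes ranged from 452 to 498 CPM in HKO and from 1089 to 1118 CPM in WT, which does not bear on the difference between the libraries.

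**Figure D1:**
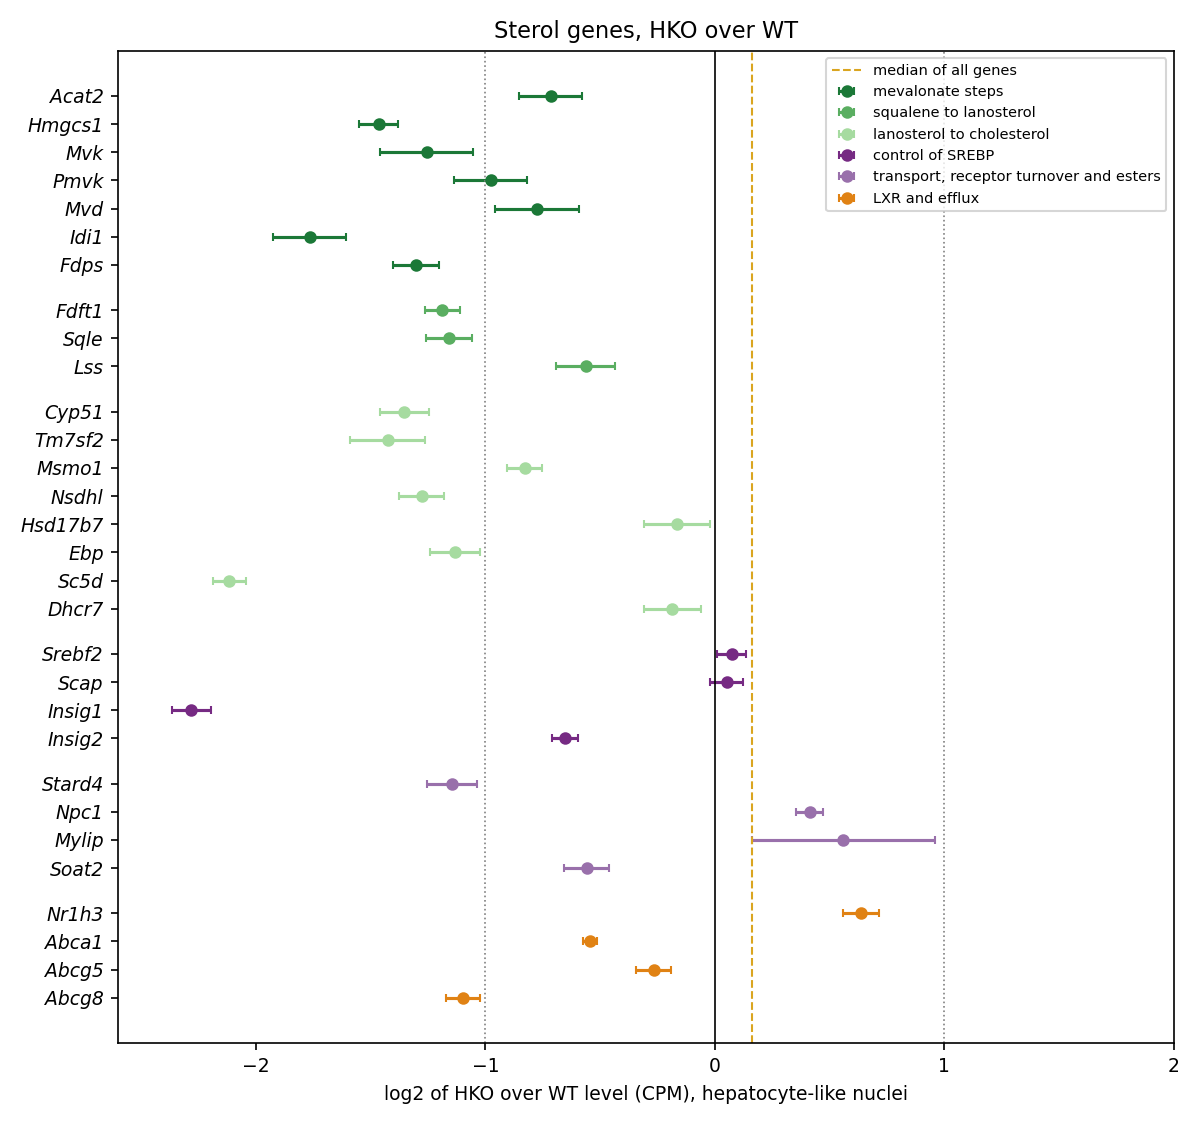
The log2 ratio of HKO over WT level in hepatocyte-like nuclei is plotted for each of the 30 genes, with exact 95% counting intervals as bars, colours for the roles, dotted lines at a 2-fold difference and a dashed line at the median of all genes (0.16). All 18 synthesis genes lie left of 0, and Insig1 (-2.27) and the synthesis gene Sc5d (-2.11) lie farthest left. Npc1, Nr1h3 and Mylip, which was below the floor, lie to the right, and Srebf2 and Scap lie close to 0.

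The mevalonate steps turn acetyl-CoA into the isoprenoid unit from which squalene is built. Summed over 7 genes they stood at 126 CPM in HKO, against 302 CPM in WT, and 4 of the 7 were at least 2-fold lower in HKO. Idi1, the isomerase that balances the isoprenoid building blocks (chromosome 13, 8885501 to 8892451, GRCm38), was at 10.8 CPM in HKO, against 36.6 CPM in WT, a fold of 0.294 (0.263 to 0.328). Hmgcs1, the cytosolic synthase that commits carbon to mevalonate (chromosome 13, 119690379 to 119708260), was at 38.9 CPM in HKO, against 107 CPM in WT, a fold of 0.362 (0.341 to 0.384). Fdps, which makes farnesyl diphosphate, was at 28.4 CPM in HKO, against 70.0 CPM in WT. The kinase gene Mvk was at 7.35 CPM in HKO, against 17.5 CPM in WT. These 4 genes were past the 2-fold mark, and the other 3 lay between. The second kinase gene, Pmvk, was at 12.2 CPM in HKO, against 24.0 CPM in WT, with a log2 ratio of -0.95. Mvd, the decarboxylase, was at 9.90 CPM in HKO, against 17.0 CPM in WT. Acat2, a thiolase at the entry of the route, was at 18.1 CPM in HKO, against 29.7 CPM in WT, and its reads may be shared with the near-identical Acat3.

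From squalene to lanosterol the 3 genes summed to 101 CPM in HKO, against 211 CPM in WT, and 2 of the 3 were at least 2-fold lower in HKO. Fdft1, squalene synthase, was at 50.4 CPM in HKO, against 115 CPM in WT, a fold of 0.439 (0.416 to 0.463). Sqle, the epoxidase that acts next, was at 29.6 CPM in HKO, against 66.1 CPM in WT. Lss, which closes the ring to lanosterol, was nearer, with 20.8 CPM in HKO, against 30.7 CPM in WT and a log2 ratio of -0.55.

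Of the 3 stretches of the synthesis route, the 8 genes that lead from lanosterol to cholesterol had the widest range, with log2 ratios of -2.11 to -0.16. They summed to 242 CPM in HKO, against 589 CPM in WT, and 5 of the 8 were at least 2-fold lower in HKO. Sc5d, the sterol desaturase (chromosome 9, 42251595 to 42264256, minus strand), was at 49.96 CPM (1897 UMIs) in HKO, against 217 CPM (9306 UMIs) in WT, a fold of 0.231 (0.219 to 0.242). Tm7sf2, a sterol reductase, was at 10.8 CPM in HKO, against 28.9 CPM in WT. Cyp51, which removes the first methyl group of lanosterol, was at 26.0 CPM in HKO, against 66.5 CPM in WT. Nsdhl, which takes part in removing the next methyl groups, was at 29.6 CPM in HKO, against 71.8 CPM in WT. The isomerase gene Ebp was at 25.2 CPM in HKO, against 55.1 CPM in WT. Those 5 genes were past the 2-fold mark. Msmo1, the methylsterol oxidase, had 56.4 CPM in HKO, against 100.1 CPM in WT, a log2 ratio of -0.82. The 2 remaining genes were close in the 2 libraries. Hsd17b7, a reductase that works beside Nsdhl, was at 18.7 CPM in HKO, against 21.0 CPM in WT, a fold of 0.893 (0.808 to 0.986). Dhcr7, the reductase of a last step, was at 25.0 CPM in HKO, against 28.4 CPM in WT, a fold of 0.880 (0.807 to 0.958).

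Among the 4 genes that control SREBP, Insig1 was far apart from the others. Insig1, which anchors Scap in the endoplasmic reticulum and is itself a known SREBP target (chromosome 5, 28071363 to 28078662), was at 34.98 CPM (1328 UMIs) in HKO, against 170 CPM (7303 UMIs) in WT. Its fold of 0.206 (0.194 to 0.218) was the lowest of the 30 genes. Insig2, an anchor that is not driven by SREBP2 in the textbook view, was at 98.4 CPM in HKO, against 155 CPM in WT, a log2 ratio of -0.65. Srebf2 itself was at 104 CPM in HKO, against 98.7 CPM in WT, and Scap at 77.9 CPM in HKO, against 75.2 CPM in WT. The log2 ratios of Srebf2 and Scap, 0.074 and 0.051, turned to -0.065 and -0.088 with median ratio size factors, so no direction is read from them.

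Of the 4 genes of transport, receptor turnover and esters, Stard4, a cytosolic sterol carrier, was at 25.4 CPM in HKO, against 56.2 CPM in WT, a fold of 0.452 (0.419 to 0.487). Soat2, the enzyme that esterifies cholesterol in hepatocytes, was at 35.7 CPM in HKO, against 52.5 CPM in WT. Npc1, which lets cholesterol leave the lysosome, was the other way round at 129 CPM in HKO, against 96.7 CPM in WT, a fold of 1.33 (1.28 to 1.39). Mylip, a ubiquitin ligase that degrades lipoprotein receptors, stayed below the floor at 3.29 CPM (125 UMIs) in HKO, against 2.24 CPM (96 UMIs) in WT.

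The LXR and efflux genes differed in direction. Nr1h3, which encodes LXR alpha, was higher in HKO at 81.7 CPM, against 52.6 CPM in WT, a fold of 1.55 (1.47 to 1.64). Abca1, which loads cholesterol onto lipoprotein particles and is an LXR target, was lower in HKO at 338 CPM, against 493 CPM in WT. The partners of the biliary pump differed in size. Abcg8 was at 55.2 CPM in HKO, against 118 CPM in WT, a fold of 0.468 (0.444 to 0.492), and Abcg5 at 64.8 CPM in HKO, against 78.0 CPM in WT, a fold of 0.831 (0.789 to 0.876). The genes of Abcg5 and Abcg8 overlap on opposite strands of chromosome 17, and the sources used here do not give the strand setting of the counting, so their reads may not be fully separated. Opposite-strand overlaps with other counted genes also touch Mvd, Fdft1, Lss, Cyp51 and Npc1, and Tm7sf2 and Fdps overlap counted genes on the same strand. The partner of Mvd, Gm20388, was far more abundant, at 733 CPM in HKO, against 688 CPM in WT. Akap9, the partner of Cyp51, was also more abundant, at 316 CPM in HKO, against 270 CPM in WT. Ctsb, the partner of Fdft1, was at 63.3 CPM in HKO, against 93.6 CPM in WT. The part of shared reads in the member levels was not tested.

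Genes that surround the route without belonging to the 30 were read from 5 lists of 38 genes. Of these 33 passed the floor, 2 were at least 2-fold lower in HKO, 1 was at least 2-fold higher and 30 lay between, with a median log2 ratio of 0.19. These counts are near the background of all genes, 4.45% lower and 2.96% higher, and the genes below are named for having the largest ratios in their lists. Srebf1, the relative of Srebf2 with a main role in making fatty acids, stood at 41.0 CPM in HKO, against 94.2 CPM in WT. Pltp, a phospholipid transfer protein, was at 6.58 CPM in HKO, against 14.0 CPM in WT. Cyp7a1, the rate-limiting enzyme of bile acid synthesis, was the gene that stood higher, with 287 CPM in HKO, against 69.3 CPM in WT, a fold of 4.14 (3.97 to 4.31). Cyp27a1 and Cyp7b1, of the other bile acid route, had log2 ratios of 0.44 and 0.18. The 8 genes of the isoprenoid branches, which leave the route before squalene, had a median log2 ratio of 0.31, with Nus1 at 0.69, Fntb at 0.51 and Ggps1 at 0.41. Among the other genes of the SREBP and LXR lists, which also cover sterol-regulated degradation and sterol efflux or uptake, Ubxn4 had a log2 ratio of 0.68. Rnf145 was at -0.40, Lcat at -0.61 and Nr1h2 at -0.47. In the list for sterol transport in lysosome and membranes, Tmem97 was at -0.85, Gramd1a at 0.35 and Stard3 at 0.25.

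The liver lobule runs from the portal tract, where blood enters, to the central vein, and many hepatocyte functions follow that axis. Non-cycling hepatocyte-like nuclei were ranked within each library by pericentral minus periportal marker level and split into 3 equal parts, of 2709 periportal and 2708 pericentral nuclei in HKO and 2832 of each in WT. In HKO the synthesis genes stood far lower at the periportal end, while in WT they were nearly level. Their sum was 314 CPM (304 to 324) in periportal and 651 CPM (636 to 666) in pericentral HKO nuclei, a fold of 0.482 (0.464 to 0.501). In WT the sums were 1095 CPM (1077 to 1113) in periportal and 1191 CPM (1172 to 1210) in pericentral nuclei, a fold of 0.919 (0.898 to 0.941). Midlobular nuclei lay between in HKO at 441 CPM, and were at 1085 CPM in WT. Split into 10 equal parts from the periportal end, the HKO level was 296, 318, 319, 375, 417, 446, 525, 554, 618 and 827 CPM. The WT level lay between 1053 and 1246 CPM in all 10 parts, so the HKO level stayed below the WT level along the whole ranking.

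Counted by gene, 16 of the 28 members that passed the floor in HKO were at least 1.5-fold lower in periportal than in pericentral nuclei, among them 14 of 17 synthesis genes, and 1, Insig2, was at least 1.5-fold higher. The background in HKO was 2.57% of 8293 genes lower and 1.87% higher. In WT, 0 of 29 members were at least 1.5-fold apart in either direction, against 2.71% of 8261 genes lower and 2.48% higher. The difference of the 2 gradients itself (HKO minus WT, on the log2 scale) was at least 1.5-fold towards the pericentral end for 15 of 29 members, 14 of them among the 18 synthesis genes, against a background of 1.17% of 8326 genes. It was below 0 for all 18 synthesis genes, with a median of -0.94, against 4163 of the 8326 genes. Towards the periportal end it reached 1.5-fold for 0 members (0.865% of genes), and the median over all genes was close to 0.

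**Figure D2:**
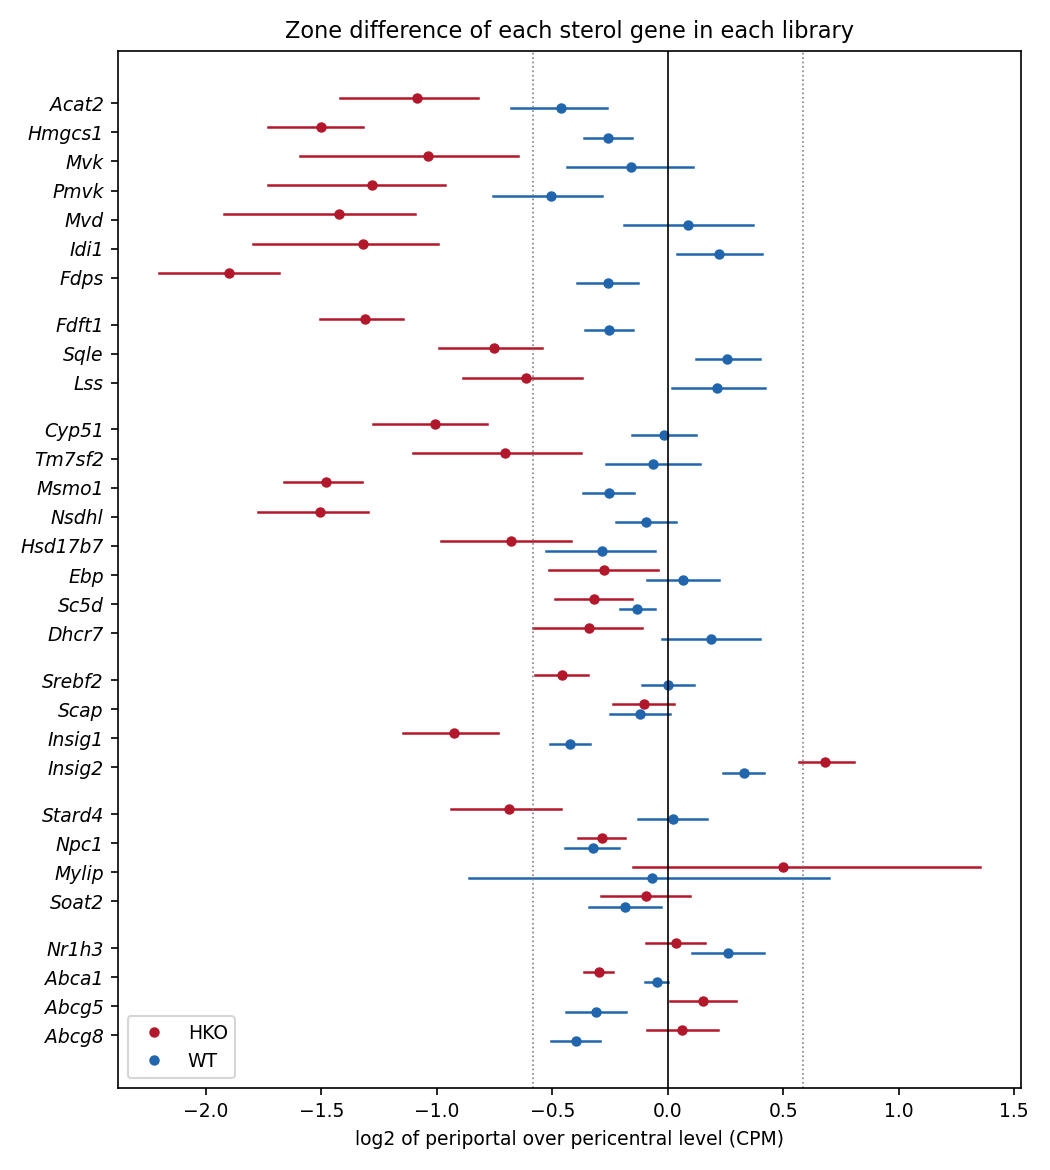
The log2 of periportal over pericentral level is plotted for each gene, HKO (red) above WT (blue), with exact 95% counting intervals as lines and dotted lines at a 1.5-fold difference. The HKO points of 14 synthesis genes that passed the floor lie past the left dotted line, down to -1.90 for Fdps, and no WT point of a gene that passed lies past either line.

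Fdps had the steepest HKO gradient of the 29 members that passed. It was at 12.7 CPM in periportal and 48.9 CPM in pericentral HKO nuclei, a log2 difference of -1.90, and at 66.8 and 80.1 CPM in the same zones of WT, a difference of -0.26. Hmgcs1 was at 21.4 CPM in periportal and 61.5 CPM in pericentral HKO nuclei, and at 107 and 128 CPM in WT. Idi1 had 6.01 CPM in periportal and 15.7 CPM in pericentral HKO nuclei and leaned the other way in WT, with 41.5 and 35.5 CPM. Further down the route, Nsdhl had 16.3 CPM in periportal and 47.1 CPM in pericentral HKO nuclei (-1.51) and 74.3 and 79.3 CPM in WT (-0.093). Msmo1 had 31.8 CPM in periportal and 89.5 CPM in pericentral HKO nuclei (-1.48), and 97.5 and 116 CPM in WT (-0.26). Sc5d, the synthesis gene with the lowest ratio between the libraries, had a shallow gradient. It had 44.2 CPM in periportal and 55.3 CPM in pericentral HKO nuclei (-0.32), and 208 and 228 CPM in WT (-0.13), so it was about as far below WT at both ends. Ebp (-0.27 in HKO) and Dhcr7 (-0.34 in HKO) also stayed under 1.5-fold.

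The regulators were zoned in different directions. Insig1 was lower at the periportal end in both libraries, with 24.8 CPM in periportal and 47.5 CPM in pericentral HKO nuclei (-0.93) and 154 and 206 CPM in WT (-0.42). Insig2 ran opposite to Insig1 in both, with 124 CPM in periportal and 76.9 CPM in pericentral HKO nuclei (0.68) and 178 and 142 CPM in WT (0.33). Srebf2, at nearly equal total levels in the libraries, had 87.3 CPM in periportal and 120 CPM in pericentral HKO nuclei (-0.46), against 102 CPM in both zones of WT (0.00). Scap had log2 differences of -0.10 in HKO and -0.12 in WT. The efflux pump genes Abcg5 and Abcg8 were at 0.15 and 0.063 in HKO and at -0.31 and -0.40 in WT, so they did not follow the synthesis genes.

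**Figure D3:**
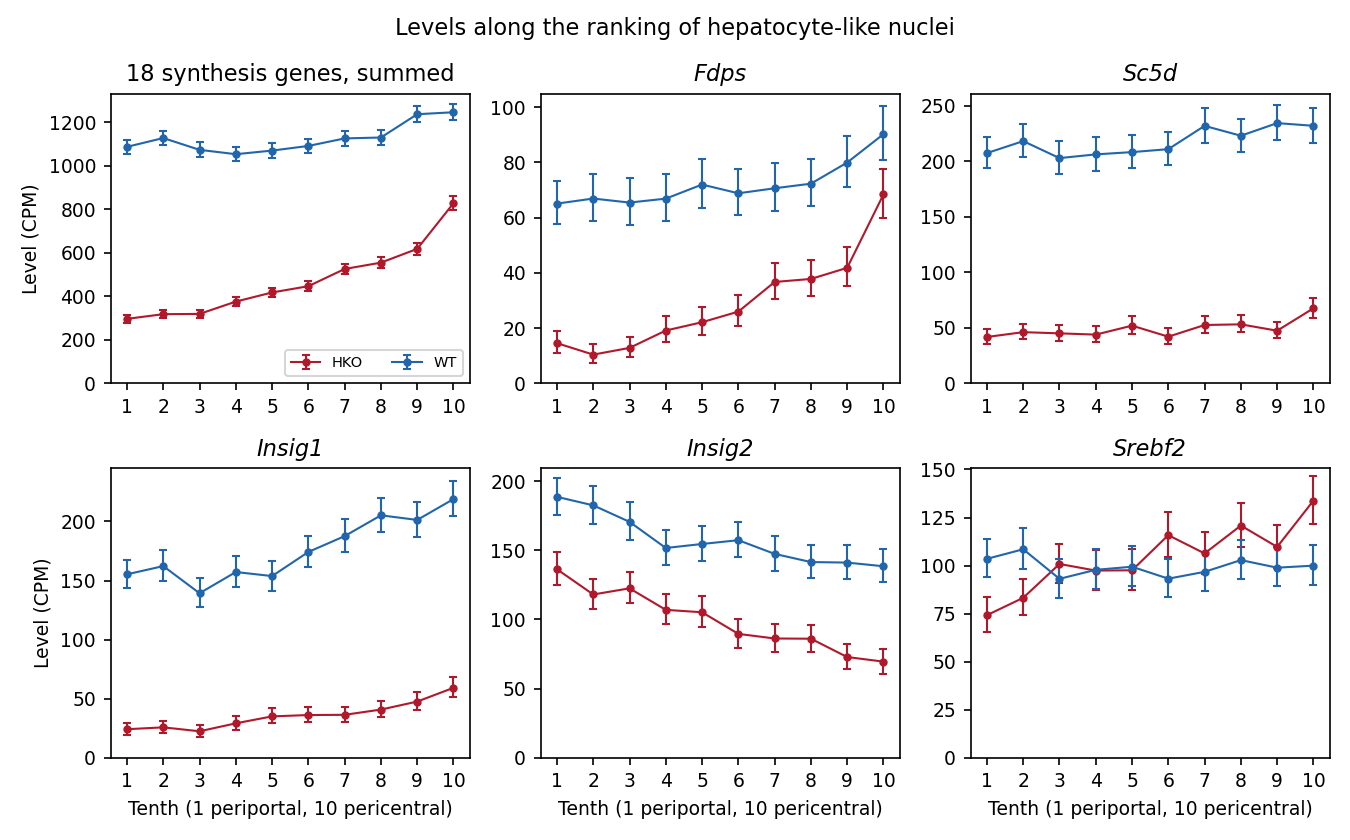
Levels in CPM are drawn over 10 equal parts of the ranked non-cycling hepatocyte-like nuclei, from periportal (1) to pericentral (10), for HKO (red) and WT (blue), with exact 95% counting intervals. The summed synthesis genes climb to 827 CPM in the last part in HKO and stay between 1053 and 1246 CPM in WT, Insig2 is lower at the pericentral end in both libraries, and Srebf2 crosses from below to above its WT level.

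The distance between the libraries differed from zone to zone. In periportal nuclei 15 of 18 synthesis genes were at least 2-fold lower in HKO, with a median log2 ratio of -1.72, against a background of 4.65% of genes. In midlobular nuclei 12 of 18 were, with a median of -1.24 and a background of 4.77%. In pericentral nuclei 4 of 18 were (Hmgcs1, Idi1, Tm7sf2 and Sc5d), with a median of -0.74 and a background of 4.18%. The median of all genes was 0.17 in each of the 3 zones. Insig1 stayed at least 2-fold lower in HKO in each zone, with log2 ratios of -2.61 in periportal, -2.25 in midlobular and -2.11 in pericentral nuclei. Nr1h3 was higher in HKO in each zone, at 0.51, 0.61 and 0.74.

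**Figure D4:**
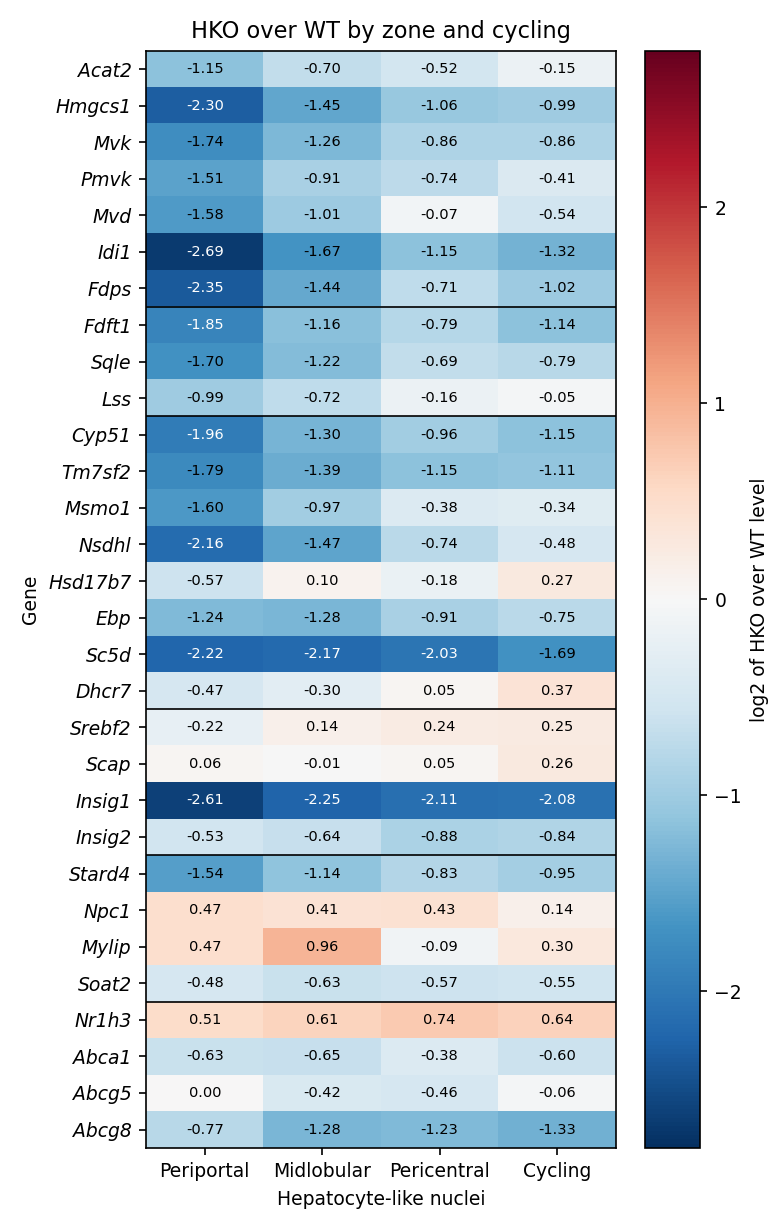
Each cell gives the log2 ratio of HKO over WT level of 1 gene in periportal, midlobular, pericentral and cycling hepatocyte-like nuclei, with blue for lower and red for higher in HKO, and horizontal lines between the roles. The blue of the synthesis genes other than Ebp is deepest in the periportal column, where Idi1 reaches -2.69, and Sc5d and Insig1 stay dark in all 4 columns.

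The ranking itself was not equally sharp in the 2 libraries. The 14 pericentral markers were 7.36-fold higher in pericentral than in periportal nuclei in HKO and 3.92-fold in WT, while the 14 periportal markers were 2.09-fold and 2.22-fold higher in periportal nuclei. Mitochondrial transcripts had a log2 difference of -0.47 in HKO and -0.17 in WT, and hepatocyte markers of 0.064 in HKO and 0.092 in WT. About 15.6% of HKO and 14.7% of WT nuclei lay within 0.1 SD of the score from a cut between zones. The part of the sharper pericentral markers in the HKO gradient was not tested. Among nuclei with a mitochondrial share under 0.1% in both libraries the log2 difference of the synthesis genes was -1.06 in HKO and -0.19 in WT.

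Seen per nucleus, after thinning each to 2000 UMIs, at least 1 synthesis UMI was found in 55.7% (54.5 to 56.8) of 7672 HKO and 87.7% (87.0 to 88.4) of 9371 WT hepatocyte-like nuclei. Without thinning the shares were 76.3% in HKO and 96.9% in WT. Endothelial-like nuclei, which also held hepatocyte marker RNA, gave 49.8% (47.0 to 52.7) of 1224 HKO nuclei and 83.6% (81.3 to 85.8) of 1112 WT nuclei. The retained endothelial-like nuclei had median depths of 3818.5 UMIs in HKO and 3352 UMIs in WT, and the retained hepatocyte-like nuclei 4171 and 3833 UMIs. In HKO the share was 45.6% in periportal, 54.2% in midlobular and 66.7% in pericentral nuclei. The periportal HKO share lay below that of endothelial-like nuclei, so it is not read as expression, while the pericentral share stood above it. The summed level of periportal HKO nuclei, 314 CPM, likewise lay below the 377 CPM of endothelial-like nuclei. The free RNA in each zone was not measured, and the zone differences above are differences in counted RNA. In WT the shares were 87.9%, 87.1% and 89.7% in the same zones, each a few points above the endothelial-like share. Nuclei with 3 or more synthesis UMIs made up 2.54% of periportal and 16.3% of pericentral HKO nuclei, against 6.21% of HKO endothelial-like nuclei. The thinning left out 978 HKO and 95 WT hepatocyte-like nuclei, and 1128 HKO and 22 WT endothelial-like nuclei.

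Hepatocytes re-enter the cell cycle after PHx, and 525 HKO and 970 WT hepatocyte-like nuclei fell in clusters led by cell cycle genes. The synthesis genes summed to 511 CPM (483 to 540) in cycling and 465 CPM in other hepatocyte-like HKO nuclei, a log2 difference of 0.13. In WT they summed to 935 CPM (909 to 963) in cycling and 1124 CPM in other nuclei, a log2 difference of -0.27. Among 27 members that passed in HKO, Pmvk was at least 1.5-fold higher in cycling nuclei and Abcg8 at least 1.5-fold lower, against backgrounds of 9.1% and 1.69% of genes. Among 29 in WT, 0 were higher (7.6% of genes) and 3 were lower (1.23% of genes), namely Mvd, Lss and Hsd17b7. Mvd was at 10.9 CPM in cycling and 17.7 CPM in other WT nuclei, and Hsd17b7 at 13.7 and 21.9 CPM. Between the libraries, 6 of 17 synthesis genes that passed in cycling nuclei were at least 2-fold lower in HKO (4.01% of genes), with a median log2 ratio of -0.79. The depth of cycling nuclei differed, with medians of 3802 UMIs in HKO and 4485.5 UMIs in WT.

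Synthesis transcripts were also counted in every class outside the hepatocytes, beside the hepatocyte markers. Their sum was 377 CPM in HKO, against 990 CPM in WT endothelial-like nuclei, 375 and 956 CPM in macrophage-like nuclei, and 361 and 874 CPM in stellate-like nuclei. T/NK-like nuclei gave 385 CPM in HKO, against 1029 CPM in WT, and cholangiocyte-like nuclei 401 CPM in HKO, against 917 CPM in WT from 126 and 95 UMIs. No synthesis gene was at least 2-fold higher in any of these 5 classes than in hepatocyte-like nuclei of the same library. The background in HKO was 5.52% of genes for endothelial-like, 7.57% for macrophage-like, 8.39% for stellate-like, 4.14% for T/NK-like and 9.45% for cholangiocyte-like nuclei. In WT it was 5.15%, 6.78%, 8.52%, 5.54% and 16.3% for the same classes. Hepatocyte markers stood at 80.3% to 92.5% of their hepatocyte-like level in these classes in HKO, and at 87.7% to 106% in WT. In the same libraries the hepatocyte-like level was 468 and 1102 CPM. How much of the synthesis RNA in any class, hepatocyte-like nuclei included, was free RNA was not measured, and no expression by the other classes is read from these levels. Between the libraries they differed much as in hepatocyte-like nuclei: 10 of 17 synthesis genes that passed were at least 2-fold lower in HKO endothelial-like nuclei (4.49% of genes), with a median log2 ratio of -1.42, and 12 of 18 in macrophage-like nuclei (3.81% of genes), with a median of -1.20.

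**Figure D5:**
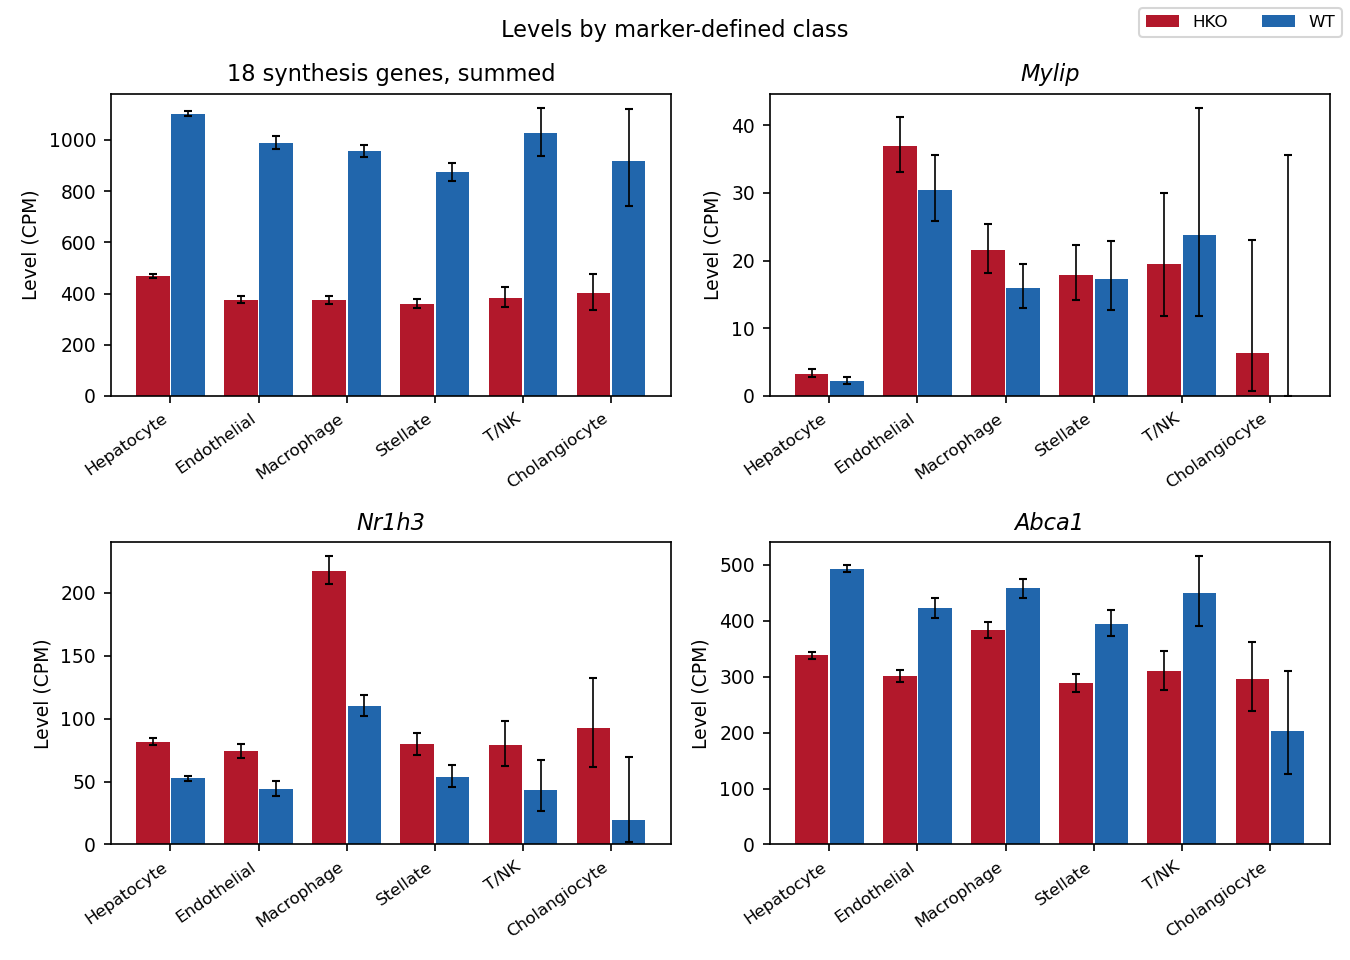
Bars give the level in CPM of the summed synthesis genes, Mylip, Nr1h3 and Abca1 in marker-defined classes, HKO (red) left of WT (blue), with exact 95% counting intervals. The summed synthesis genes lie at 361 to 401 CPM in HKO and 874 to 1029 CPM in WT outside the hepatocytes, Mylip is highest in endothelial-like and Nr1h3 in macrophage-like nuclei of both libraries.

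Mylip and Nr1h3 stood above their hepatocyte-like level in some of these classes. Mylip was at 36.9 CPM (33.0 to 41.2) in HKO, against 30.4 CPM (25.9 to 35.5) in WT endothelial-like nuclei. In hepatocyte-like nuclei it was at 3.29 and 2.24 CPM. It was also at 21.6 CPM in HKO, against 16.0 CPM in WT macrophage-like nuclei, 17.9 and 17.2 CPM in stellate-like nuclei, and 19.4 and 23.8 CPM in T/NK-like nuclei. The endothelial-like level was the highest of these in both libraries, and in WT its interval overlapped that of T/NK-like nuclei. Nr1h3 was at 218 CPM in HKO, against 110 CPM in WT macrophage-like nuclei, more than 2-fold above its level of 81.7 and 52.6 CPM in hepatocyte-like nuclei of the same library. In endothelial-like nuclei it was at 74.2 and 44.1 CPM and in stellate-like nuclei at 79.5 and 53.8 CPM, near the hepatocyte-like level. Abca1, though known from macrophages, was at 384 CPM in HKO, against 458 CPM in WT macrophage-like nuclei, beside 338 and 493 CPM in hepatocyte-like nuclei. In cholangiocyte-like nuclei it was at 296 CPM (93 UMIs) in HKO, against 203 CPM (21 UMIs) in WT, the latter more than 2-fold below its WT hepatocyte-like level. Between the libraries, the Nr1h3 log2 ratio was 0.98 in macrophage-like nuclei and 0.63 in hepatocyte-like nuclei, and the difference between these ratios was not tested.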

How the data were processed

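Nuclei of 1 HKO and 1 WT liver library were profiled by droplet sequencing. The deposited files hold raw UMI counts per gene and barcode, made with Cell Ranger 5.0.0 per the file headers, and the submitters' processing notes also name STAR, Seurat 3.2.0 and GRCm38. The other deposited columns are gene and barcode names.

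A barcode was kept if it had 500 genes or more and a mitochondrial share below 10%, which left 14902 HKO and 14515 WT. Scrublet marked 2 HKO and 0 WT barcodes, so it did not work here, and doublets were not removed. Nuclei were clustered jointly without batch correction in scanpy 1.11.5 (2000 variable genes without the members, 30 components, 15 neighbours, Leiden resolution 0.5). Clusters were named from marker lists: a class outside the hepatocytes needed 50% of its list, haemoglobin genes were not counted, and clusters led by mitochondrial transcripts were left unnamed. These naming rules were set after seeing the data, and rebuilt names may differ from the study's.

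Counts were summed per class and library and scaled to CPM. Ratios are log2 of HKO over WT with 0.5 CPM added to each, for genes that averaged 10 CPM or more, and log2 ratios understate low genes. Intervals are exact Poisson, conditional binomial or Clopper-Pearson intervals at 95%, and reads of 1 library are not replicates. Zones rank nuclei by the mean z score of pericentral minus periportal markers. All 30 members are named, with Sox9, some genes that overlap members and up to 3 genes with the largest ratio in each surrounding list. 1 further surrounding list is not reported here. The members and lists were chosen with earlier results of these data known. Scripts were tested on simulated data. Alternatives included edgeR 4.0.16 TMM factors, median ratio factors, other floors, pseudocounts, clusterings and zone cuts.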

Additional observations from a re-analysis of the deposited data

Results flagged for a closer look

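The synthesis genes leaned in opposite directions between cycling and other hepatocyte-like nuclei, with a log2 difference of 0.13 in HKO and -0.27 in WT, and the difference between these values was not tested.

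The members named here had zone gradients of opposite sign in the libraries, with at least 1 of the gradients past 1.5-fold. The share of all genes that meet this rule was not counted. The log2 of periportal over pericentral level was -1.42 in HKO and 0.087 in WT for Mvd, and -1.32 in HKO and 0.22 in WT for Idi1. It was -0.75 in HKO and 0.26 in WT for Sqle, and -0.61 in HKO and 0.22 in WT for Lss. For the carrier gene Stard4 it was -0.69 in HKO and 0.022 in WT. None of these differences was tested, since there was 1 library per group, and the WT counting interval of Mvd (-0.19 to 0.37) and that of Stard4 (-0.13 to 0.17) include 0.

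Barcodes of the cluster led by mitochondrial transcripts enter no main comparison. They enter the alternative over all nuclei and an unplanned one that counted them as hepatocyte-like. These barcodes also held synthesis transcripts. Their summed level was 436 CPM in 34 HKO barcodes and 1247 CPM in 1972 WT barcodes. Ebp stood at 113 CPM (103.8 to 121.8) in these WT barcodes, above its hepatocyte-like level of 55.1 CPM. In HKO it was at 62.4 CPM (20.2 to 145.5) from 5 UMIs, an interval that includes its hepatocyte-like level of 25.2 CPM.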

How the results depend on the processing

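Leaving out a replicate was not possible with 1 library per group. No paired analysis was possible because each group holds 1 library. Of 360 member ratios over the alternatives, 356 kept the sign of their main value, and the other 4 belong to Srebf2 and Scap under median ratio and TMM factors. The alternatives include the unplanned one that counted the mitochondrial-led barcodes as hepatocyte-like. The 14 members at least 2-fold lower in HKO stayed below 0 in 168 of 168 values and at -1 or less in 165. Their number was 14, between 12 and 15 under the other alternatives, and 6 with a floor of 50 CPM, which leaves fewer genes; none was at least 2-fold higher under any alternative run. The log2 ratio of the summed synthesis genes, -1.23, moved to -1.37 with median ratio factors, -1.36 with TMM factors, -1.31 over all nuclei and -1.27 without cycling hepatocytes. All genes counted 621 lower and 473 higher with no floor, and 177 lower and 124 higher with a floor of 50 CPM. The zone difference of -1.05 in HKO was -1.23 between narrower end zones and -0.83 with even-numbered markers. It was -0.99 without the most abundant gene, an alternative chosen after seeing the data. That of -0.12 in WT was -0.17 between narrower end zones and -0.19 at a mitochondrial share under 0.1%, also chosen after seeing the data. The cut at 0.1% kept a smaller part of WT than of HKO nuclei. With cycling nuclei taken by at least 3 cell cycle UMIs, the difference between cycling and other nuclei was 0.20 in HKO and -0.13 in WT, against 0.13 and -0.27 by cluster. The share of nuclei with a synthesis UMI was 36.1% in HKO and 67.6% in WT at 1000 UMIs, and 76.3% in HKO and 96.9% in WT without thinning. Why these values moved was not tested. Depth limits Mylip and the cholangiocyte-like class, which held few UMIs.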
